A study of Homo sapiens with 19 samples.

Results

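The 501Mel melanoma line was profiled with 2 separate scramble control groups, shSCR1 with 3 libraries and shSCR2 with 2, and the comparison of these control groups is described here. They make up 5 of the 19 RNA-seq libraries of the study, chosen by their knockdown labels alone. All 10 libraries of 501Mel cells, a human melanoma cell line grown in RPMI medium with fetal calf serum, came from cells infected with lentiviral shRNA vectors. shBRG1, directed at the SMARCA4 transcript that encodes BRG1, has 3 libraries, and shMITF has 2. No target of the scramble vectors is named, and the sources used here do not state whether shSCR1 and shSCR2 are different vectors, on which days the cells were infected, or whether replicates were separate cultures. The deposited gene lists of shSCR1 and shBRG1 coincide and those of shSCR2 and shMITF coincide, so the vector, the batch and the control group cannot be told apart. P-values therefore measure the spread between these libraries, which may be technical.

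MITF is the basic helix-loop-helix leucine zipper factor that drives the melanocyte lineage, and it binds E-box sequences in front of pigment genes such as TYR. Its relatives TFEB and TFE3 act on lysosome genes through similar E-boxes. BRG1 is the ATPase of the SWI/SNF chromatin remodelling complexes and acts as a cofactor of MITF. A scramble shRNA has no intended target, and a knockdown is read as the difference from it. A control group thus sets the zero from which every gene in the knockdown is measured.

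Total counts were 46827614, 51442426 and 32941771 in shSCR1 replicates 1 to 3, and 31651379 and 78857900 in shSCR2 replicates 1 and 2. The common biological coefficient of variation, the spread between replicates beyond counting error, was 4.62% in shSCR1 and 16.6% in shSCR2. It was 4.64% in shBRG1 and 18.1% in shMITF, so each knockdown group had about the spread of the control group it was deposited with. Over the 500 most different genes of each pair of libraries, the root mean square log2 difference was 1.69 to 1.81 within shSCR1 and 1.94 within shSCR2. Between the control groups it was 3.68 to 3.96, more than between shSCR2 and shMITF, where it was 2.60 to 3.40. Both control groups expressed the melanocytic markers: the summed level of all 7 was 25869 to 27799 counts-per-million (CPM) with shSCR1 and 15231 to 15317 CPM with shSCR2. PMEL made up most of this sum, at 20743 to 21989 CPM with shSCR1 and 10047 to 10332 CPM with shSCR2, and 3 of the 7 markers were higher in shSCR2. The summed fibroblast markers were at 4.02 to 5.50 CPM with shSCR1 and 8.85 to 10.5 CPM with shSCR2, keratinocyte markers at 30.1 to 32.9 and 32.7 to 41.2 CPM, endothelial markers at 2.10 to 3.16 and 0.539 to 0.550 CPM, and blood markers at 1.33 to 2.90 and 0.640 to 0.863 CPM. No marker listed in the files was without a read over these 5 libraries, and the part of other cells in the results was not tested.

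The control groups differed at 33.0% of all genes tested, in both directions. Of 19056 genes with enough counts, 2344 (12.3%) were higher and 3938 (20.7%) were lower in shSCR2 at the thresholds the study used (a Benjamini-Hochberg adjusted p under 0.05 together with a log2 fold change past 1). These calls, and every adjusted p given for a single gene, rest on the quasi-likelihood test of edgeR, and fold changes are log2 of shSCR2 over shSCR1 unless another pair is named. In 6269 of the 6282 genes called, the levels of the 2 groups did not overlap. The thresholds for a call favour such genes, so this adds no support to the calls. The share over all genes tested was not counted. The median fold change of all genes tested was -0.03, with a middle range of -0.85 to 0.59. Low counts were common among the calls: 38.4% of the genes called higher and 59.3% of those called lower averaged under 100 counts per library in their higher group. The split of calls moved with the scaling. The genes called higher made up 37.3% of calls with TMM, 29.1% with library sizes alone, where the median of all genes shifted by -0.14, and 47.1% with quantile normalization.

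Many of the genes with the smallest p-values were at levels where counting error is small. HTN1 and KCTD12, described below, were also among them and had 30 to 66 reads per library with shSCR1. The neutral endopeptidase gene MME was at 1290, 1288 and 1311 CPM with shSCR1 and at 163 and 167 CPM with shSCR2, a fold change of -2.98 ± 0.07 (SE, adjusted p = 1.09e-07). LINC00479, a long intergenic noncoding RNA, fell from 138 ± 4.58 CPM (SD, n = 3) to 5.93 ± 1.00 CPM (SD, n = 2), and EFNA1, which encodes an ephrin ligand, from 83.4 ± 10.2 to 3.84 ± 0.337 CPM. ABTB1, the phospholipase gene PLA2G6 and the septin gene SEPTIN4 were lower at -3.19, -2.58 and -2.57. Among genes called higher with the smallest p-values, SOX5, a SOX family factor that acts on melanocyte genes, was at 8.43, 9.16 and 9.45 CPM with shSCR1 and at 53.3 and 56.1 CPM with shSCR2. The small GTPase gene CDC42 was higher by 1.85, the HSP70 co-chaperone gene BAG2 by 2.15, FASTKD2, which acts on mitochondrial RNA, by 1.71, and CDK2AP1 by 1.85.

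The largest fold changes belonged to genes that one group barely expressed. HTN1, a salivary histatin gene, was at 1.33 ± 0.0918 CPM with shSCR1 and 39.6 ± 8.93 CPM with shSCR2, and KCTD12, an auxiliary subunit of GABA-B receptors, at 0.872 ± 0.0732 and 22.7 ± 3.09 CPM. ACTL8, an actin-like cancer-testis gene, was at 0.343 ± 0.0396 CPM with shSCR1 and at 41.0 and 23.0 CPM in the shSCR2 libraries. The lysophosphatidic acid receptor gene LPAR3 was higher by 4.66, MGAM2 by 5.17, the RNA-binding protein gene RBM24 by 4.78 and TRIM51 by 4.64. In the other direction PAEP, which encodes the secreted lipocalin glycodelin, was at 429, 341 and 333 CPM with shSCR1 and 4.65 and 2.68 CPM with shSCR2, a fold change of -6.74 ± 0.27. DEPP1 was lower at -6.69, ARMH1 at -6.28, the guidance factor gene SLIT3 at -6.12 and CRACR2B at -5.88. Some of these genes had almost no reads in the lower group. The Wilms tumour factor gene WT1 had 272 reads with shSCR2 and 1 read with shSCR1, a ratio scaled to depth of 357 with a 95% exact counting interval of 63.5 to 14133. The chemokine receptor gene CCR7 had 361 reads with shSCR1 and 2 reads with shSCR2, a ratio of 138 (37.8 to 1141). IGSF22 had 308 reads with shSCR1 and 0 with shSCR2, so it was at least 78.3-fold lower against a floor of 3 reads over the group. These intervals and the floor cover counting error only.

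MITF itself was higher in shSCR2. It was at 511, 599 and 609 CPM with shSCR1 and at 1064 and 1180 CPM with shSCR2, and the groups did not overlap. The fold change was 0.97 ± 0.09 (adjusted p = 1.43e-05), just inside the fold threshold, so MITF counted as not called. It lay past the threshold without shSCR1 replicate 3 (1.0), without shSCR2 replicate 1 (1.09) and with the replicate number as a block (1.02), and at 0.60 with offsets for GC content. SMARCA4 was at 177, 192 and 186 CPM with shSCR1 and at 330 and 327 CPM with shSCR2, a fold change of 0.83 ± 0.06 (adjusted p = 4.5e-06) and 1.31 with offsets for GC content. Both targets of the knockdowns thus stood higher in the control group of shMITF than in that of shBRG1. SOX10, the neural crest factor that acts upstream of MITF, was higher by 0.34 ± 0.07 (adjusted p = 0.00215). Of 11 melanocyte regulators and MiT/TFE family genes tested, 1 was called, SNAI2, a zinc finger factor of neural crest migration, at 31.6 CPM on average with shSCR1 and at 73.6 and 137 CPM with shSCR2. The median of these regulators was 0.29, and 0.54 with offsets for GC content.

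Genes of pigmentation, which MITF is known to activate, lay on both sides. PMEL, the fibril protein of melanosomes, was at 19014, 19906 and 19247 CPM with shSCR1 and at 9273 and 9416 CPM with shSCR2. TYR, the enzyme that starts melanin synthesis, was at 1243, 1271 and 1267 CPM with shSCR1 and at 606 and 611 CPM with shSCR2. The melanosomal glycoprotein gene GPNMB was at 2442 ± 25.4 CPM with shSCR1 and 1167 ± 69.2 CPM with shSCR2. All 3 were lower in both shSCR2 libraries than in every shSCR1 library, with fold changes of -1.05 ± 0.07, -1.05 ± 0.06 and -1.07 ± 0.07. They were just past the fold threshold: without shSCR2 replicate 1 they were at -0.996, -0.999 and -0.96 and the calls were lost, and PMEL was at -0.86 with offsets for GC content and at -0.60 with quantile normalization. TYRP1, another enzyme of the tyrosinase family, was higher by 0.45 ± 0.11 (adjusted p = 0.00568). DCT, a further member, was at -0.25 ± 0.16 (adjusted p = 0.189), and its shSCR2 libraries at 1529 and 1098 CPM overlapped the shSCR1 range of 1339 to 1676 CPM. The melanosomal antigen gene MLANA was at -0.24 ± 0.07 (adjusted p = 0.0125). Over 16 genes of melanin synthesis and melanosome proteins, 0 were called higher and 3 lower (18.8%, beside 20.7% of all genes), with a median of -0.24. The 23 genes of melanosome biogenesis and transport had no call at these thresholds and a median of 0.51 (0.26 with offsets for GC content). Without the fold threshold 4 of the 16 passed the adjusted p as higher and 8 as lower, and 14 and 5 of the 23.

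The promoters of TYR and GPNMB, members called lower while MITF was higher, are shown for the E-box CATGTG, which was searched on both strands and reads CACATG on the other. The search covered windows of 250 bases before to 50 after each RefSeq start (GRCh38.p14). It was found in 11.1% of all 35116 promoters of that table, in 7.95% of those of genes tested, and in 12 of 19 promoters (63.2%) of the melanin synthesis and melanosome list. The promoters of the genes called higher and lower held it at 8.60% and 8.87%. The 250 bases before the start of each gene follow 5′ to 3′ on the strand of the gene, with matches in capitals. TYR lies at chr11:89177625-89177874 (plus strand), with matches 104 and 12 bases before the start, and GPNMB at chr7:23246525-23246774 (plus strand), with matches 123 and 62 bases before it.
TYR: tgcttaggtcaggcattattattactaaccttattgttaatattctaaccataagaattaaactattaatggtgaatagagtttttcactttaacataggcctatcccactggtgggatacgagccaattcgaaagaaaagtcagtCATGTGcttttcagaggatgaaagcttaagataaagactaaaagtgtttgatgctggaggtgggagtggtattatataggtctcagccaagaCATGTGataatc
GPNMB: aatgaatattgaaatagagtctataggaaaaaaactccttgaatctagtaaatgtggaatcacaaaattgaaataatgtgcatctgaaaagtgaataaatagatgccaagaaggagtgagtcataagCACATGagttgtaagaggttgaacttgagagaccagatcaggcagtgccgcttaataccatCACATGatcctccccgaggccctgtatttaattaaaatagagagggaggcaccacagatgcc

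In a longer list of 45 genes known to go with MITF in melanoma, 2 were called higher and 6 lower (4.44% and 13.3%, beside 12.3% and 20.7% of all genes). The median was 0.08, with a sign that changed under 5 of the alternatives. The called members lower in shSCR2 were PMEL, TYR, GPNMB, the herpesvirus entry receptor gene TNFRSF14 (507 and 209 CPM on average), and the survival genes BIRC7 (-1.41) and BCL2A1 (-1.21). The orphan nuclear receptor gene NR4A3 and the phosphatase gene PPM1H were higher by 1.18 and 1.01. The call of TNFRSF14 was lost with offsets for GC content (-0.69), that of NR4A3 with quantile normalization (0.92) and without shSCR2 replicate 2 (0.85), and that of PPM1H under 7 alternatives, among them 0.80 with quantile normalization, 0.89 without shSCR1 replicate 1 and 0.91 without shSCR2 replicate 1.

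**Figure D1:**
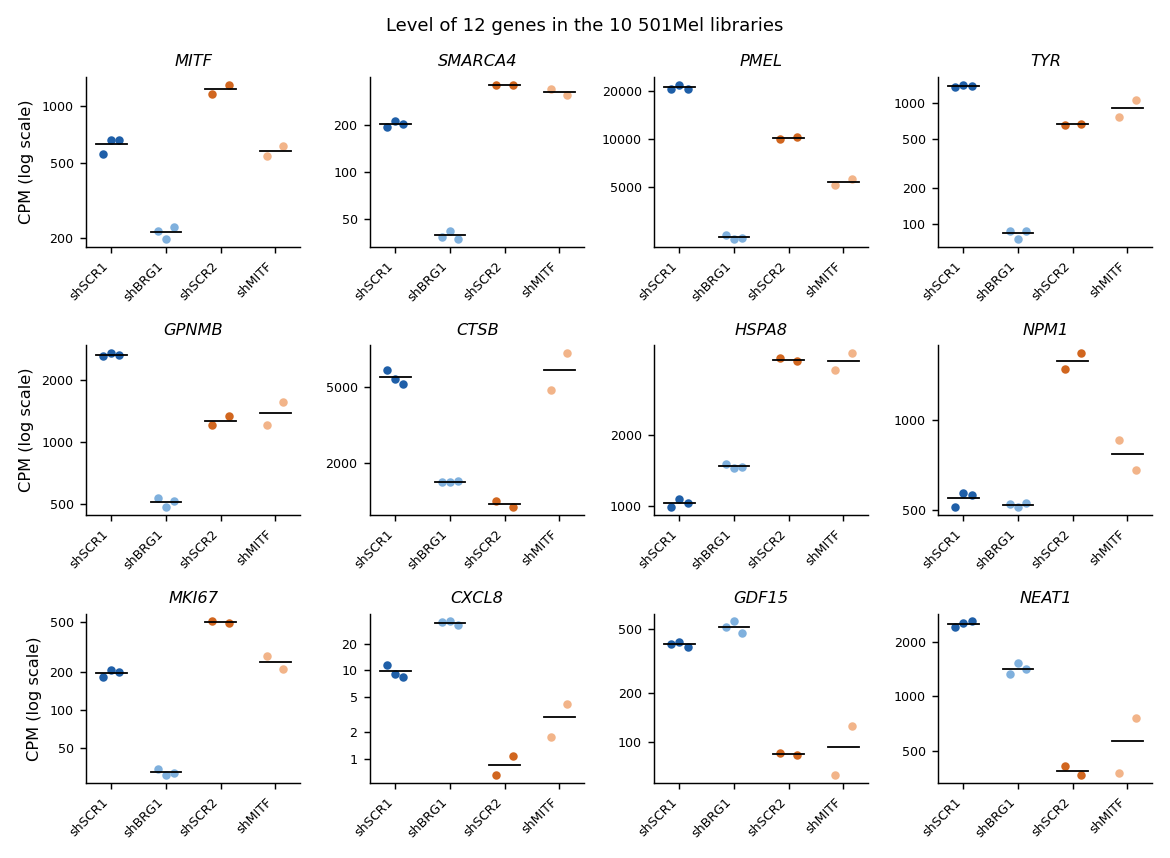
Level of 12 genes in the 10 libraries of 501Mel cells, in CPM normalized over all 10 libraries on a log scale, with 1 point per library and a bar at the mean of each group. MITF and SMARCA4 are higher in both shSCR2 libraries than in the 3 shSCR1 libraries, PMEL, TYR and GPNMB are lower, and the MITF level of the shMITF libraries (542 and 612 CPM) lies in and just below the range of shSCR1 (558 to 661 CPM).

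Lysosome genes were lower in shSCR2. CTSB, which encodes the protease cathepsin B, was at 5632, 4948 and 4781 CPM with shSCR1 and at 1157 and 1063 CPM with shSCR2, a fold change of -2.21 ± 0.10 (adjusted p = 4.96e-07). The acid alpha-glucosidase gene GAA was at 137, 142 and 135 CPM with shSCR1 and 29.4 and 21.9 CPM with shSCR2. The sialidase gene NEU1, the cathepsin D gene CTSD and the calcium channel gene MCOLN1 were lower at -1.04, -1.31 and -1.27, and the call of NEU1 was lost with offsets for GC content (-0.94). Of 27 lysosome genes tested 0 were called higher and 6 lower, 22.2% beside 20.7% of all genes, but the median was -0.70 beside -0.03 and 21 of the 27 passed the adjusted p as lower. The genes of the list took 1.46 to 1.6% of all counts with shSCR1 and 0.643 to 0.652% with shSCR2. The palindromic E-box CACGTG of lysosome promoters stood in 7 of 21 promoters (33.3%) of the list, in 8.96% of those of genes tested, in 10.9% of those of genes called higher, in 7.14% of those of genes called lower and in 7.26% of all promoters. GAA, at chr17:80101331-80101580 (plus strand), is shown as the called member of the list with the lowest fold change (-2.44 ± 0.12), with matches in capitals 76 and 31 bases before the start.
GAA: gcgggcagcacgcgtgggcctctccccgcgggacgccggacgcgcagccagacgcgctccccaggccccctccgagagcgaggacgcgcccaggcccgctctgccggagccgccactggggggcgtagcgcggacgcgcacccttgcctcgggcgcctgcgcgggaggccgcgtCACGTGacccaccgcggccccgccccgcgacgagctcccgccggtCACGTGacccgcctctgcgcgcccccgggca

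Heat shock proteins, the chaperones that refold proteins in stressed cells, were mostly higher in shSCR2. HSPA8, the constitutive HSP70 of the cytosol, was at 902, 969 and 946 CPM with shSCR1 and at 3964 and 3793 CPM with shSCR2, a fold change of 2.05 ± 0.07 (adjusted p = 1.8e-07). HSPD1, the mitochondrial chaperonin HSP60, was at 388 and 1124 CPM on average, the HSP110 gene HSPH1 at 177 and 523 CPM, and the HSP40 co-chaperone gene DNAJA1 at 146 and 366 CPM (0.96 and not called with offsets for GC content). HSPE1, HSP90AA1, HSPA4L and HSPA1B were higher by 1.36, 1.25, 1.88 and 1.08, and the reads of HSPA1B may be shared with its near-identical copy HSPA1A. Of 15 heat shock genes 8 were called higher (53.3%, beside 12.3% of all genes) and 0 lower, with a median of 1.08. Not called were HSP90AB1 (0.85), DNAJB1 (0.69), CRYAB (0.65), HSPA1L (0.55), HSPA1A (0.46) and BAG3 (0.37). HSPB1, also not called, was lower at -0.46 (adjusted p = 0.00555). The heat shock list took 0.499 to 0.519% of all counts with shSCR1 and 1.16 to 1.22% with shSCR2. A heat shock element of 3 units (GAA, TTC and GAA, each 2 bases apart) was searched on both strands. It stood in 5 of 22 promoters of the list (22.7%), in 0.379% of those of genes tested and in 0.490% of all promoters. The promoters of the genes called higher and lower held it at 0.618% and 0.440%. The called members HSPH1, DNAJA1, HSPE1 and HSPA4L had no match in the 250 bases before a start. HSPD1 and HSP90AA1 had a match before 1 start and none before another. HSPA8, the member with the highest fold change, has 2 such matches, 230 and 55 bases before its start, shown in capitals in the 250 bases at chr11:123062137-123062386 (minus strand).
HSPA8: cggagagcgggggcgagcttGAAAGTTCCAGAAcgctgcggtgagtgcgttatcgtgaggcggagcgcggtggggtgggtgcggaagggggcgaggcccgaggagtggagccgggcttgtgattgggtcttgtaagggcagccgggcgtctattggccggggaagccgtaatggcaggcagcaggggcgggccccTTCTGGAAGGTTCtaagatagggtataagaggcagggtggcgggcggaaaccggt

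Of 11 genes of the NRF2 antioxidant response 5 were higher (45.5%, beside 12.3% of all genes) and 0 lower, with a median of 0.98. NQO1, the quinone reductase of that response, was at 83.0, 95.8 and 95.8 CPM with shSCR1 and at 295 and 416 CPM with shSCR2. GCLM, the modifier subunit of glutathione synthesis, was at 29.8 and 102 CPM on average, the thioredoxin reductase gene TXNRD1 at 108 and 308 CPM, PRDX1 at 340 and 771 CPM, and OSGIN1 was higher by 1.78. Among 16 ER chaperones and genes of the unfolded protein response 0 were called in either direction by edgeR at the fold threshold (2 and 10 passed the adjusted p as higher and lower), with a median of -0.29. The list of 20 ATF4 and amino acid stress genes, with a median of -0.03 whose sign changed under 6 alternatives, split. It had 5 higher (25%) and 3 lower (15%), beside 12.3% and 20.7% of all genes. Its amino acid transporter genes SLC7A1 and SLC7A5 (101 to 299 and 660 to 1529 CPM on average) and the mitochondrial folate enzyme gene MTHFD2 were higher, and CHAC1, which degrades glutathione, the mTORC1 inhibitor gene DDIT4 and the factor gene CEBPB were lower at -2.22, -1.93 and -1.54. Without shSCR2 replicate 1 and without replicate 2, CHAC1 was at -1.93 and -2.61 and MTHFD2 at 1.56 and 1.39, past the fold threshold while the adjusted p was not. The call of SLC7A5 was lost without shSCR2 replicate 2 (0.85), and that of CEBPB with offsets for GC content (-0.96).

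Nucleolar and ribosome assembly genes were higher. NPM1, the nucleolar chaperone nucleophosmin, was at 468, 513 and 518 CPM with shSCR1 and at 1368 and 1524 CPM with shSCR2, a fold change of 1.53 ± 0.08 (adjusted p = 7.57e-07). The nucleolar scaffold gene NOLC1 was at 227 and 554 CPM on average, the ribosome assembly gene WDR12 at 59.4 and 169 CPM, and the small nucleolar RNP gene NOP58 at 159 and 365 CPM (0.83 and not called with offsets for GC content). Of 19 tested 10 were called higher (52.6%, beside 12.3% of all genes) and 0 lower, with a median of 1.09. Cytosolic ribosomal protein genes shared the direction at a smaller size, with a median of 0.45. Of 85 tested 3 were called higher (RPLP0, RPSA and RPS27A, by 1.59, 1.29 and 1.10) and 0 lower. That was 3.53% higher, beside 12.3% of all genes. Protein-coding genes after which a tested processed pseudogene is named, described below, had a median of 0.61, with 21.1% called higher. How many of the nucleolar, ribosomal, heat shock and NRF2 genes are among them was not counted. The call of RPS27A was lost under several alternatives, among them 0.84 with quantile normalization. MYC, the factor that drives ribosome assembly and growth, was at 30.5, 42.9 and 40.7 CPM with shSCR1 and at 108 and 102 CPM with shSCR2.

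Cell division genes were higher in shSCR2. MKI67, the proliferation marker Ki-67, was at 166, 186 and 185 CPM with shSCR1 and at 465 and 442 CPM with shSCR2, a fold change of 1.34 ± 0.07 (adjusted p = 9.07e-07). The mitotic kinase gene CDK1 was at 90.2 and 252 CPM on average, the kinetochore motor gene CENPE at 44.0 and 148 CPM and the spindle gene DLGAP5 at 48.8 and 120 CPM. In the mitosis list 13 of 34 were called higher (38.2%, beside 12.3% of all genes) and 0 lower, with a median of 0.92. In the DNA replication list 11 of 37 were called higher (29.7%) and 0 lower, with a median of 0.84. RRM2, a subunit of ribonucleotide reductase, was at 65.0, 79.1 and 80.4 CPM with shSCR1 and at 275 and 259 CPM with shSCR2, the clamp loader gene RFC3 at 52.6 and 154 CPM on average, and the helicase genes MCM4 and MCM6 at 163 and 403 and at 97.2 and 225 CPM. Without the fold threshold, 32 of the 34 and 34 of the 37 passed the adjusted p as higher. With offsets for GC content the calls of DLGAP5 (0.86) and MCM6 (0.94) were lost.

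CCND1, the cyclin of G1 entry, and genes of quiescence stood lower. CCND1 was at 1208, 1266 and 1266 CPM with shSCR1 and at 650 and 541 CPM with shSCR2, a fold change of -1.07 ± 0.09. The call was lost with offsets for GC content (-0.98) and without shSCR2 replicate 2 (-0.94). The CDK inhibitor gene CDKN1C was at 18.5, 19.5 and 19.3 CPM with shSCR1 and at 1.13 and 0.840 CPM with shSCR2, a fold change of -4.34 ± 0.16 (adjusted p = 2.28e-07). YPEL3, a growth-arrest gene, was lower at -2.85, the PI3K inhibitor gene PIK3IP1 at -3.05 and the transcription cofactor gene CITED2 at -1.62. In all, 4 of 10 quiescence and nutrient-withdrawal genes were called lower (40%, beside 20.7% of all genes) and 0 higher. The median was -0.46 (-0.76 with offsets for GC content).

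Replication-dependent histone genes were lower, against the direction of the replication list. H2AC6 was at 41.8, 36.02 and 35.9 CPM with shSCR1 and at 1.19 and 1.34 CPM with shSCR2, a fold change of -4.88 ± 0.14 (adjusted p = 1.71e-07). H2BC5 was at 14.6 and 0.778 CPM on average, H2BC21 at 20.02 and 1.24 CPM and H2BC12 at 25.6 and 4.50 CPM. Of 22 tested 16 were called lower (72.7%, beside 20.7% of all genes), with a median of -2.33. The 1 called higher, H4C3, stood at 0.232 CPM or less in every library. The list took 0.020 to 0.024% of all counts with shSCR1 and 0.002% with shSCR2. Most of these messages end in a stem-loop without a poly(A) tail and several are near-identical copies, so how the reads were divided among them is uncertain.

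Among 21 p53 target genes 4 were called higher and 2 lower (19.0% and 9.52%, beside 12.3% and 20.7% of all genes), with a median of 0.22. GDF15, a secreted stress cytokine, was at 368, 376 and 355 CPM with shSCR1 and at 79.5 and 76.0 CPM with shSCR2, and the death gene BBC3 was lower at -1.32. The negative regulator of p53 MDM2 was at 20.4 and 48.2 CPM on average, CCNG1 at 87.5 and 218 CPM, TIGAR at 20.8 and 46.8 CPM and TP53I3 at 0.809 and 4.26 CPM. With offsets for GC content the calls of MDM2 (0.87), CCNG1 (0.87), TIGAR (0.94) and BBC3 (-0.74) were lost, and that of TIGAR also without shSCR2 replicate 1 (0.90).

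Several cytokine and chemokine genes were lower in shSCR2. CXCL8, the neutrophil chemokine, was at 10.6, 8.29 and 7.73 CPM with shSCR1 and at 0.597 and 0.976 CPM with shSCR2, a fold change of -3.41 ± 0.25 (adjusted p = 3.6e-06). CCL2, the monocyte chemokine, was at 4.002, 3.28 and 3.40 CPM with shSCR1 and at 0.266 and 0.569 CPM with shSCR2, a fold change of -2.95 ± 0.29 (adjusted p = 2e-05). The cytokine genes IL11 and IL24 were lower at -5.98 and -4.19, and the adhesion receptor gene ICAM1 was at 129 and 50.01 CPM on average. NFKB1, a subunit of NF-kappaB, was instead at 26.3, 28.1 and 26.9 CPM with shSCR1 and 65.8 and 68.1 CPM with shSCR2, and IL6, also called higher, stood at 0.332 CPM or less in every library. Of 18 cytokines, chemokines and NF-kappaB targets 2 were called higher and 9 lower, with a median of -1.36. These were 11.1% and 50%, beside 12.3% and 20.7% of all genes. The chemokine and cytokine genes CCL20, IL1B and LIF and the feedback gene TNFAIP3 were also called lower. Genes at a low level had this direction too. Among all protein-coding genes at 0.0828 to 2.26 CPM, 46.4% were called lower, with a median of -0.99. No list was set beside genes of a like level.

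Interferon-stimulated genes had 1 call higher and 11 lower of 25, with a median of -0.97. These were 4% and 44%, beside 12.3% and 20.7% of all genes, and the list was not set beside genes of a like level. STAT2, which carries the interferon signal, was at 255, 241 and 246 CPM with shSCR1 and at 82.6 and 95.1 CPM with shSCR2. IFI6 was at 210 and 69.8 CPM on average, and OASL and IRF7 were lower at -2.55 and -2.17, while IFI44 was higher by 1.42. In the list of AP-1 and immediate-early genes 2 of 24 were higher (8.33%), MYC and NR4A3, and 8 lower (33.3%), with a median of -0.61. The AP-1 subunit gene FOSL2 was at 162, 136 and 128 CPM with shSCR1 and at 37.9 and 36.1 CPM with shSCR2, the stress gene IER3 at 466 and 104 CPM on average, FOS at 56.7 and 25.8 CPM and JUNB at 63.8 and 31.3 CPM. Without shSCR2 replicate 1 the calls of FOS (-0.95) and JUNB (-0.88) were lost, and JUNB was at -0.44 with offsets for GC content. Among 15 MAPK feedback genes 0 were called higher and 3 lower (beside 20.7% of all genes), CCND1, SPRY1 (-1.36) and SPRED3 (-3.17), with a median of -0.17. Without shSCR2 replicate 2 the calls of CCND1 (-0.94) and SPRY1 (-0.97) were lost.

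Secreted factors and genes of the undifferentiated melanoma state lay on both sides. PDGFB, a growth factor for stromal cells, was at 0.817, 0.773 and 0.673 CPM with shSCR1 and at 0 and 0.0542 CPM with shSCR2, near the limit of counting. TGFB2 was at 8.53, 8.2 and 8.69 CPM with shSCR1 and at 4.75 and 4.72 CPM with shSCR2, a fold change of -0.84 ± 0.13, which became -1.23 with offsets for GC content. SERPINE2 (1440 and 356 CPM on average) and the angiogenic factor gene VEGFA (131 and 41.5 CPM) were called lower, and the growth factor genes FGF2 (0.155 and 2.06 CPM) and VEGFC (1.07 and 2.30 CPM) and the guidance gene SEMA3A (5.41 and 13.2 CPM) higher. The calls of VEGFC (0.97 with library sizes alone) and SEMA3A (0.87 with offsets for GC content) were each lost under an alternative. The list of growth factors and secreted factors of senescence had 3 of 18 higher (16.7%) and 9 lower (50%), beside 12.3% and 20.7% of all genes. Its median was -0.92 (-0.55 with quantile normalization). Neither this list nor the next was set beside genes of a like level. Of 25 undifferentiated melanoma genes tested 5 were called higher (20%) and 10 lower (40%), with a median of -0.76 (-0.33 with quantile normalization). Its member COL13A1 was lower at -5.21, the activin subunit gene INHBA at -4.68 and the integrin gene ITGA3 at -2.70, and RXRG, TEAD4 and AMIGO2 were higher by 2.73, 1.81 and 1.5.

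**Figure D2:**
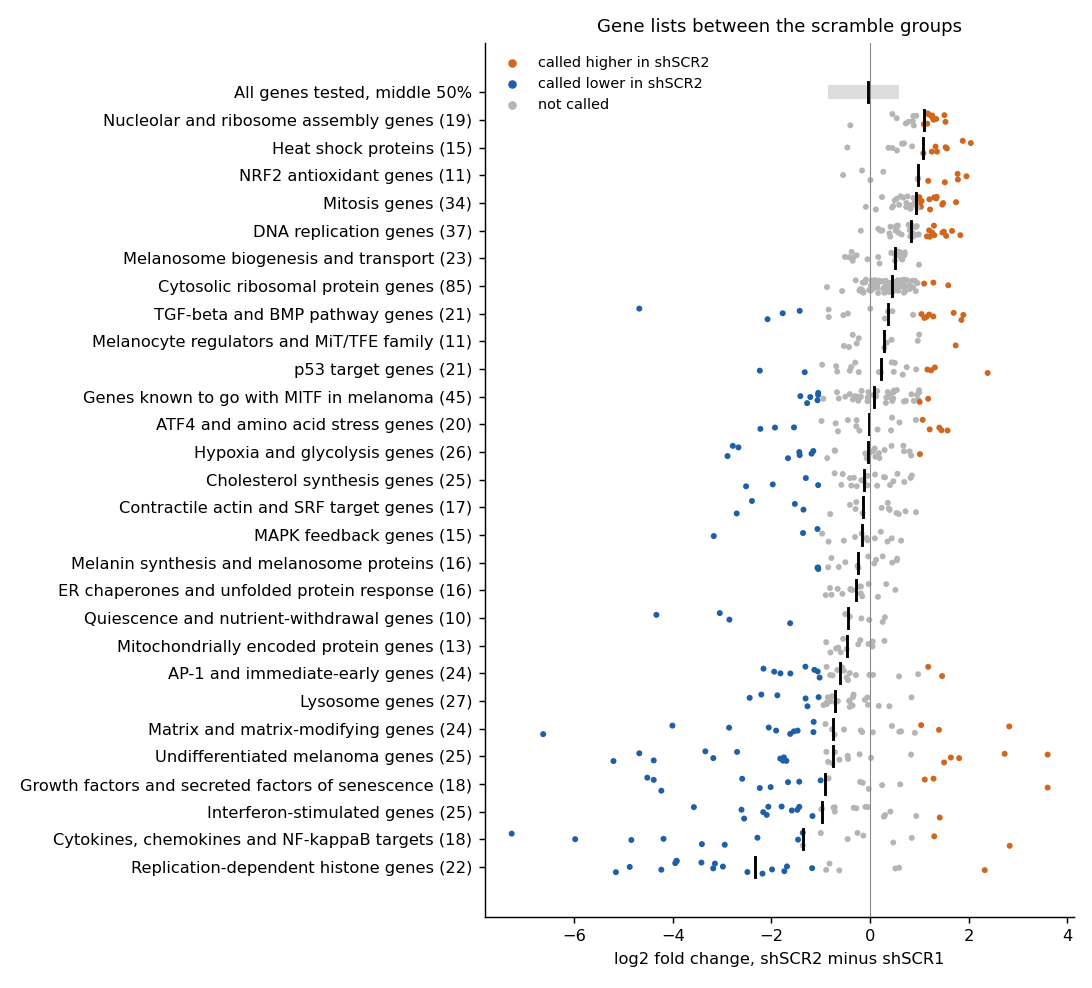
log2 fold change of shSCR2 minus shSCR1 (horizontal axis) for the tested members of 28 gene lists, 1 point per gene, with the number tested in brackets, orange for genes called higher, blue for genes called lower and grey for the rest, and a black bar at each median. The grey band is the middle 50% of all genes tested (-0.85 to 0.59). Medians run from -2.33 in the replication-dependent histone genes to 1.09 in the nucleolar and ribosome assembly genes.

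The matrix list had 3 of 24 members higher (12.5%) and 10 lower (41.7%), beside 12.3% and 20.7% of all genes. Its median of -0.74 came to -0.36 with offsets for GC content, and the list was not set beside genes of a like level. COL6A3 was at 12.9, 13.2 and 12.7 CPM with shSCR1 and at 1.06 and 0.651 CPM with shSCR2, the protease inhibitor genes TIMP2 and TIMP3 were lower at -1.15 and -2.05 and COL1A1 at -1.47, and the laminin gene LAMA4 was higher by 2.83. With offsets for GC content the calls of TIMP2 (-0.95) and COL1A1 (-0.97) were lost. The collagenase gene MMP1 had 294 reads with shSCR1 and 2 with shSCR2, a ratio scaled to depth of 112 (30.8 to 930). In the TGF-beta and BMP pathway list 8 of 21 were higher (38.1%) and 4 lower (19.0%), with a median of 0.37 (0.06 with offsets for GC content). BMP targets were among the former: ID3 was at 14.8, 14.4 and 14.8 CPM with shSCR1 and at 63.9 and 42.6 CPM with shSCR2, ID1 at 4.53 and 10.1 CPM on average and the inhibitor gene SMAD6 at 4.94 and 10.1 CPM (0.70 and not called without shSCR2 replicate 2). The TGF-beta effector gene SMAD3 (33.3 and 12.2 CPM) and the activin antagonist gene FST (36.5 and 10.4 CPM) were lower. Of 18 YAP/TEAD target genes 1 was called (5.56%, beside 20.7% of all genes lower), ARHGEF17, lower at -1.20, and the median was -0.47. The call of ARHGEF17 was lost with offsets for GC content (-0.72) and without shSCR2 replicate 2 (-0.95). Contractile actin and SRF target genes had 0 of 17 higher and 4 lower (23.5%, beside 20.7% of all genes), with a median of -0.15 whose sign changed under 2 alternatives. The tropomyosin gene TPM2 (52.8 and 8.00 CPM) and TAGLN (6.40 and 1.26 CPM) were among the 4.

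Among 26 hypoxia and glycolysis genes 1 was higher and 8 lower, with a median of -0.04. These were 3.85% and 30.8%, beside 12.3% and 20.7% of all genes. NDRG1, a stress gene induced without oxygen, was at 56.0, 48.7 and 48.3 CPM with shSCR1 and at 7.23 and 7.54 CPM with shSCR2, and the enzyme genes PFKP and ALDOC were lower at -1.15 and -1.19 (-0.81 and -0.84 and not called with offsets for GC content). GAPDH, the glycolytic enzyme often used as a reference, was the member called higher, at 1566, 1501 and 1446 CPM with shSCR1 and 3238 and 2836 CPM with shSCR2 (1.01 ± 0.08), a call lost under 9 alternatives, among them 0.99 and 0.97 without shSCR1 replicates 2 and 3 and 0.96 without shSCR2 replicate 1. ACTB, a cytoplasmic actin gene also often used as a reference, was at 1281, 1469 and 1403 CPM with shSCR1 and at 2386 and 2899 CPM with shSCR2, a fold change of 0.93 ± 0.10. Both reference genes, which have many processed pseudogenes, thus differed between the control groups beyond the spread of the replicates.

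Few sterol genes were called. The sterol reductase gene TM7SF2 was at 37.9, 33.7 and 31.1 CPM with shSCR1 and at 6.70 and 5.43 CPM with shSCR2, a fold change of -2.52 ± 0.13 (adjusted p = 8.82e-07), and the sterol sensor gene INSIG1 was lower at -1.30. In all, 4 of 25 cholesterol synthesis genes were lower (16.0%, beside 20.7% of all genes) and 0 higher, with a median of -0.12 that came to 0.07 with offsets for GC content. Of 7 fatty acid synthesis genes 1 was called, their regulator SREBF1, lower at -1.06, with a median of -0.03. The call of SREBF1 was lost with offsets for GC content (-0.58) and without shSCR2 replicate 2 (-0.81). Of 3 metallothionein and zinc export genes 1 was lower, MT2A, at 57.4, 67.4 and 56.5 CPM with shSCR1 and 14.8 and 14.8 CPM with shSCR2, with a median of -0.27. In the clock list 2 of 16 were higher, PER3 and HLF, and 1 lower, PER1 (95.5 and 36.4 CPM on average). These were 12.5% and 6.25%, beside 12.3% and 20.7% of all genes, and the median was 0.04. The calls of PER1 (-0.91) and PER3 (0.94) were lost with offsets for GC content, and that of PER3 also without shSCR1 replicate 1 (0.99) and shSCR2 replicate 2 (0.92).

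Of 20 BRG1 and PBAF/BAF subunit genes 1 was higher, SMARCD1 (59.0 and 142 CPM on average), and 1 lower, SMARCD3 (25.1 and 11.1 CPM, and -0.99 and not called with offsets for GC content), with a median of 0.43. That was 5% each, beside 12.3% and 20.7% of all genes. Nuclear-encoded genes of oxidative phosphorylation had 2 of 80 higher (2.5%), COX7B2 and UQCRHL, and 1 lower (1.25%), COX6B2, with a median of 0.17. Both shares were below those of all genes. The call of COX7B2 was lost without shSCR2 replicate 2 (0.72) and with offsets for GC content (0.81). The 13 mitochondrially encoded protein genes had 0 calls by edgeR at the fold threshold (1 and 8 passed the adjusted p as higher and lower) and a median of -0.47. Cancer-testis antigen genes had 3 of 25 higher and 3 lower (12% each, beside 12.3% and 20.7% of all genes), with a median of 0.50. Their member MAGEA1 was at 44.2 and 88.5 CPM on average, a call lost under 8 alternatives, among them 0.81 with quantile normalization and 0.95 and 0.98 without shSCR1 replicates 1 and 2. The 213 ZNF genes of chromosome 19 tested had 25 higher (11.7%) and 19 lower (8.92%), again beside 12.3% and 20.7% of all genes, with a median of 0.26. Of the marker lists, 3 of 5 fibroblast markers tested were higher and 1 lower, with LUM at 1.70 and 7.12 CPM on average, 2 of 2 endothelial and 1 of 3 blood markers were lower, and the keratinocyte markers had 0 of 2 called. Of these the call of the endothelial marker CDH5 was lost under 9 alternatives, among them -0.46 with quantile normalization, -0.84 without shSCR1 replicate 3, and -0.85 and -1.27 without shSCR2 replicates 1 and 2, and that of the blood marker ITGAM without shSCR2 replicate 2 (-1.42). The fibroblast markers THY1 and PDGFRA, both called higher, had at most 11 reads in any shSCR1 library and at most 29 in any shSCR2 library. The call of PDGFRA was lost with DESeq2, with glmTreat and without shSCR1 replicate 2 (1.23). That of COL1A1, the fibroblast marker called lower, was lost with quantile normalization (-0.99), with offsets for GC content (-0.97) and with glmTreat. The melanocytic markers had 0 higher and 2 lower of 7, PMEL and TYR, with a median of -0.24. Because these are bulk samples, fewer cells of a type and less RNA per cell cannot be told apart.

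Gene classes differed between the control groups as well. Processed pseudogenes, copies of messages inserted back into the genome, were higher: of 1128 tested 61.1% were called higher and 8.51% lower, with a median of 1.63. That median ranged from 0.76 to 2.21 under the alternatives. Their share of all counts was 0.104 to 0.112% with shSCR1 and 0.150 to 0.179% with shSCR2. Protein-coding genes after which a tested processed pseudogene is named had a median of 0.61 over 422 genes, with 21.1% higher and 1.18% lower, beside a median of 0.04 over the other 13430, with 9.74% higher and 17.6% lower. Reads that fit both a gene and its copies can be assigned to either, so the level of single members of either class is uncertain. Long noncoding genes were lower: the median was -0.66 over 952 lincRNAs (36.9% called lower) and -0.75 over 1225 antisense genes (38.1%), and these came to -0.17 and -0.24 with quantile normalization. The counts carry no statement on strand, so an antisense gene and its partner cannot be told apart. Long noncoding RNAs took 1.26 to 1.3% of counts with shSCR1 and 0.855 to 0.894% with shSCR2. NEAT1, the architectural RNA of paraspeckles, was at 2199, 2284 and 2389 CPM with shSCR1 and at 380 and 335 CPM with shSCR2, and MALAT1, the abundant RNA of nuclear speckles, at 575, 428 and 490 CPM and at 99.3 and 136 CPM. Both were chosen after their values were seen.

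Fold changes also followed base composition and level. With protein-coding genes in 5 bins of equal size by GC content the medians were 0.46, 0.31, 0.07, -0.22 and -0.49 from the lowest (30.2 to 40.9% GC) to the highest (58.4 to 75.8%). The share called lower was 6.39% in the lowest bin and 31.4% in the highest. Offsets for GC content, which by construction take up this trend, brought the outer medians to 0.06 and 0.01 and left 2169 genes higher and 3729 lower. The medians of the heat shock, nucleolar, replication, mitosis and lysosome lists were then 0.96, 1.06, 0.91, 0.70 and -0.68. In 5 such bins by mean level the medians were -0.99, -0.07, 0.19, 0.24 and 0.33 from lowest to highest, and 46.4% of the lowest bin (0.0828 to 2.26 CPM) was called lower. A gene could pass the filter on counts through the group where it was higher alone. The share called in the lowest bin may thus be set in part by the filter, which was not tested. At an equal depth of 31651220 reads, 26340 to 26938 genes had a read in the shSCR1 libraries and 24525 to 25421 in the shSCR2 libraries. The libraries went through ribosomal RNA depletion and a duplex-specific nuclease, which removes abundant double-stranded cDNA, and whether these steps differed between the groups was not tested.

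**Figure D3:**
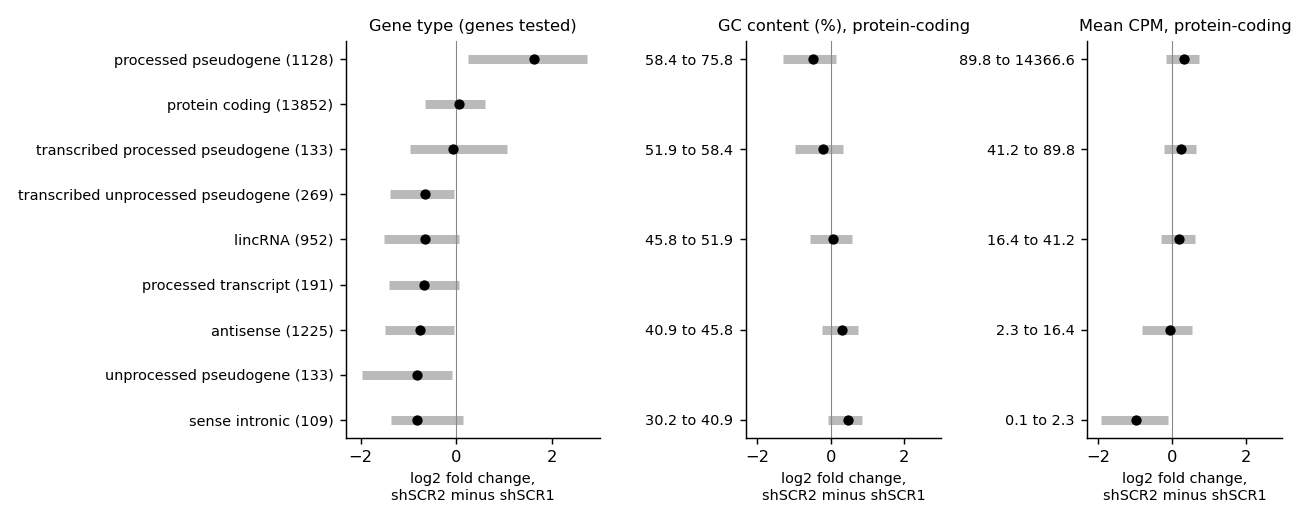
Median (point) and middle 50% (bar) of the log2 fold change of shSCR2 minus shSCR1 by gene type, and for protein-coding genes in 5 bins of equal size by GC content in percent and by mean level in CPM. Processed pseudogenes stand to the right at 1.63, the medians of the GC bins run from 0.46 to -0.49 with rising GC content, and the bin of genes at the lowest level has a median of -0.99.

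Each knockdown was then read against each control group. Against shSCR2, the group deposited with it, shMITF gave 990 genes higher (5.59%) and 602 lower (3.4%) of 17701 tested. Against shSCR1 the same shMITF libraries gave 2335 higher (12.2%) and 3376 lower (17.6%) of 19179. For shBRG1 there were 4453 higher (21.7%) and 3571 lower (17.4%) of 20514 against shSCR1, and 6879 higher (32.0%) and 4321 lower (20.1%) of 21475 against shSCR2. Without shMITF replicate 2, shMITF against shSCR2 gave 543 genes higher. With library sizes alone the split for shBRG1 moved to 6192 higher and 2398 lower against shSCR1, and to 8953 and 2576 against shSCR2. The median size of the fold change over 16674 genes tested throughout was 0.61 between the control groups, 0.36 for shMITF against shSCR2 and 0.54 against shSCR1, and 0.67 for shBRG1 against shSCR1 and 0.85 against shSCR2. The first of these values was larger than the value for shMITF with its own control, a difference that was not tested.

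**Figure D4:**
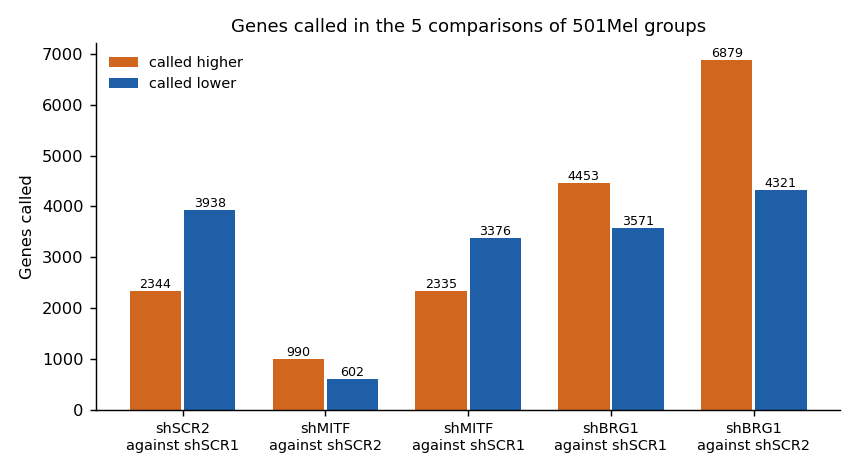
Number of genes called higher (orange) and lower (blue) at the thresholds given above in 5 comparisons of 501Mel groups. The 2 control groups differ at 2344 and 3938 genes, against 990 and 602 for shMITF with shSCR2 as the control.

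The 2 readings of a knockdown share its libraries, so their overlap is not independent evidence. Of the genes higher with shMITF, 462 were called with either control, 46.7% of the list against shSCR2 and 19.8% of that against shSCR1, and 62 of the 990 were called lower with the other control. Of the genes lower with shMITF, 320 were shared, 53.2% and 9.48% of the lists, and 12 of the 602 were called higher with the other control. Of the genes higher with shBRG1, 3513 were shared, 78.9% of the list against shSCR1 and 51.1% of that against shSCR2, and of those lower 1958, 54.8% and 45.3%. Among the calls against shSCR1, 42 of those higher and 185 of those lower with shBRG1 were called in the opposite direction against shSCR2.

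The knocked-down gene itself was read differently with the 2 controls. With all 10 libraries normalized together, MITF was at 558, 661 and 659 CPM with shSCR1, 1152 and 1294 CPM with shSCR2, 542 and 612 CPM with shMITF and 217, 198 and 228 CPM with shBRG1. With shMITF its fold change was -1.06 ± 0.14 against shSCR2 (adjusted p = 0.0014) and -0.12 ± 0.10 against shSCR1 (adjusted p = 0.28). With shBRG1 it was -1.55 against shSCR1 and -2.52 against shSCR2. SMARCA4 was at 39.0, 42.2 and 37.6 CPM with shBRG1, 194, 212 and 201 CPM with shSCR1, 358 and 358 CPM with shSCR2 and 335 and 310 CPM with shMITF. Its fold change with shBRG1 was -2.36 and -3.19 against the 2 controls, and with shMITF 0.67 against shSCR1 and -0.13 against shSCR2.

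Pigment genes were read in the same direction where the change was large. DCT was lower with shMITF at -2.82 against shSCR2 and -3.11 against shSCR1, and PMEL had -0.91 and -1.99. TYR had 0.47 ± 0.17 against shSCR2 (adjusted p = 0.078) and -0.61 ± 0.13 against shSCR1 (adjusted p = 0.0031), so its sign depended on the control. With shBRG1, TYR was lower at -4.03 and -2.98 and PMEL at -3.15 and -2.10 against shSCR1 and shSCR2. The melanin synthesis and melanosome list had 0 of 16 higher in any of these readings, and 3 lower with shMITF against shSCR2, 6 against shSCR1, and 15 and 14 with shBRG1.

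Among secreted factors, the sign of CXCL8 with shMITF differed between the controls. It was at 1.77 and 4.12 CPM with shMITF over the 10 libraries, between the shSCR2 libraries (0.647 and 1.07 CPM) and the shSCR1 libraries (8.37 to 11.6 CPM), with fold changes of 1.77 and -1.72. CCL2, at 7.79 and 11.4 CPM with shMITF, was higher against both by 4.31 and 1.3. With shBRG1 CCL2, at 2.20 to 2.57 CPM, was at -0.75 against shSCR1 and higher by 2.18 against shSCR2, and CXCL8 was higher by 1.82 and 5.21. PDGFB was higher in all 4 readings, by 6.06 and 1.76 with shMITF and 8.84 and 4.61 with shBRG1 against shSCR2 and shSCR1. TGFB2 was lower in all 4, at -4.87 and -5.74 with shMITF and -1.06 and -1.89 with shBRG1.

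The lists that differed between the controls had a different median with each control. This restates the difference between the controls, because the 2 readings share the knockdown libraries. For heat shock genes the median with shMITF was 0.08 against shSCR2, with 0 of 15 called by edgeR at the fold threshold, and 1.33 against shSCR1, with 10 higher. HSPA8 had -0.00 and 2.01. With shBRG1 the list had 0.22 against shSCR1 and -0.85 against shSCR2, with 7 lower. For mitosis genes the median with shMITF was -0.79 against shSCR2 (8 of 34 lower) and 0.08 against shSCR1 (0 of 34 called by edgeR at the fold threshold), and MKI67 had -1.03 and 0.28. With shBRG1 25 and 34 of the 34 were lower against shSCR1 and shSCR2. Of 37 replication genes 0 were higher and 7 lower with shMITF against shSCR2, and 2 higher and 1 lower against shSCR1. With shBRG1 0 were higher, and 12 and 30 were lower against shSCR1 and shSCR2.

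Lysosome and histone genes were read differently with the 2 controls too, which again restates the difference between the controls. CTSB, at 4784 and 7508 CPM with shMITF over the 10 libraries, was higher by 2.37 against shSCR2 and at 0.13 ± 0.18 against shSCR1 (adjusted p = 0.549), and with shBRG1 it was lower at -1.82 against shSCR1 and at 0.38 against shSCR2. Over 27 lysosome genes 2 were higher and 1 lower with shMITF against shSCR2, and 0 higher and 11 lower against shSCR1. The histone list had 8 of 17 higher and 0 lower with shMITF against shSCR2, and 0 higher and 11 of 21 lower against shSCR1. H2AC6 had 3.24 and -1.68. The undifferentiated melanoma list had 12 of 25 higher and 0 lower with shMITF against shSCR2, and 12 of 27 higher and 4 lower against shSCR1. The processed pseudogenes had medians of -0.15 and 1.27 with shMITF against shSCR2 and shSCR1, and 0.24 and -1.77 with shBRG1 against shSCR1 and shSCR2.

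**Figure D5:**
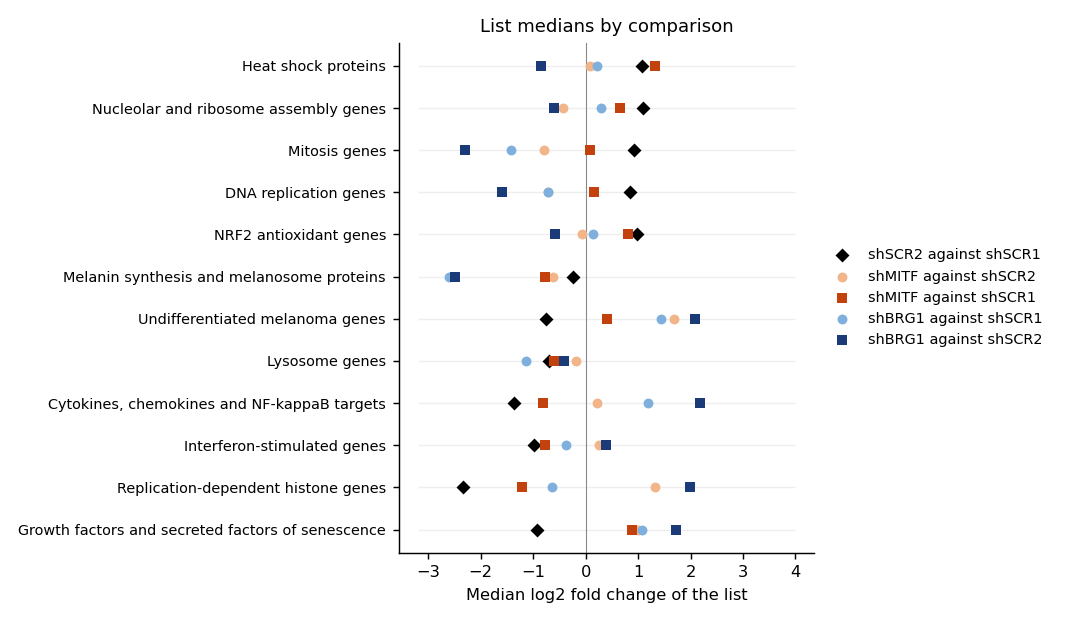
Median log2 fold change (horizontal axis) of 12 gene lists in 5 comparisons of 501Mel groups, with black diamonds for shSCR2 against shSCR1, light circles for each knockdown against the control deposited with it and dark squares for the other control. The comparisons share libraries. Heat shock genes lie at 0.08 for shMITF against shSCR2 and at 1.33 against shSCR1, and the melanin synthesis and melanosome list lies below 0 in all 5.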

How the data were processed

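RNA-seq of 501Mel cells with shSCR1 (3 libraries) and shSCR2 (2 libraries) was compared, and the 5 libraries with shBRG1 and shMITF were used for the knockdown comparisons. Total RNA was depleted of ribosomal RNA and the cDNA libraries were treated with a duplex-specific nuclease. For each replicate the authors deposited the raw count of reads on every Ensembl gene, not normalized. The submitters' processing notes name CASAVA 1.8, TopHat 1.4.1, Bowtie 0.12.7 and hg19, and the program that counted reads is not given in the sources used here. Groups and replicate numbers came from the sample labels.

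The comparison used the 39165 genes listed for both control groups. The 3059 genes listed only for shSCR1 had at most 7 counts and the 2302 listed only for shSCR2 at most 5. Counts were fitted with edgeR 4.0.16 on R 4.3.3 (TMM, filterByExpr with the group, robust glmQLFit, glmQLFTest, Benjamini-Hochberg), with only the groups compared in each fit. A gene was called at an adjusted p under 0.05 and an absolute log2 fold change over 1. Standard errors were taken as the absolute fold change over the root of F. CPM are TMM-normalized over the 5 control libraries, or over all 10 where stated. Symbols were found for 29801 of the listed genes, and types, lengths and GC content came from GENCODE 29 for 36296, matched by Ensembl identifier. Its coordinates (GRCh38) were not set beside those of the authors. Promoters came from RefSeq (GRCh38.p14) by symbol. Lists defined by a name pattern, such as ribosomal proteins, held protein-coding genes only. Replicates differed by more than counting error (chi-square per gene of 2.27 or more), so none was counted as a duplicate.

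The 41 gene lists and the members described were chosen with earlier results of these data known, and no list was tested as a set. Genes were named by a rule: 15 fixed genes, the 8 with the largest fold change and the 8 with the smallest p in each direction (symbol known, at least 100 counts per sample in the higher group, groups not overlapping), and up to 4 called members per list and direction with the smallest p. Further members, such as CTSD and HSPE1, were named after their values were seen. Several genes picked by this rule are left out here. On simulated counts for shSCR2 against shSCR1 over 19056 genes, 182 of 200 genes shifted by 2 on the log2 scale were recovered and 9 unchanged genes were called. The simulation gave both groups the same spread for a gene and shifted as many genes up as down. The real groups spread unequally (4.62% in shSCR1 and 16.6% in shSCR2) and differed at 33.0% of genes. False calls under those conditions were therefore not measured.

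The alternatives were DESeq2 1.42.0, library sizes without TMM, limma-voom (limma 3.58.1) with quantile normalization, GC offsets, other filters, all 4 groups in one fit, a replicate block, glmTreat, no fold threshold and each replicate left out. Limma-voom with a spread for each group and all alternatives for the knockdowns were chosen after seeing the data. Tables and figures were made with Python 3.11.15, pandas 2.3.3, numpy 2.4.6 and matplotlib 3.10.9.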

Additional observations from a re-analysis of the deposited data

How the results depend on the processing

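Between the control groups, the counts of genes higher and lower in shSCR2 (2344 and 3938) stayed within 1.5 times under DESeq2, library sizes alone, quantile normalization, GC offsets, no filter, all 4 groups in one fit and limma-voom with a spread for each group. They came to 1212 and 2346 where every sample had to hold at least 10 counts and 14974 genes were tested, to 1331 and 2126 with glmTreat, and to 6720 and 6583 without a fold threshold. Leaving out 1 library gave 2080 to 2585 higher and 3438 to 4043 lower. The replicate number as a replicate block gave 2338 and 3789. Nothing in the labels says that the numbers pair libraries, and the deviations of same-numbered libraries from their group means correlated at 0.026 and 0.006, those of shMITF and shSCR2 at 0.131, and those of the other pairings with a knockdown at -0.0821 to 0.0436. Of 2709 fits of the 183 named genes under an alternative, 2543 kept direction and side of the threshold, 159 lost the call, 7 gained one and 0 changed sign. The medians of 10 of 41 lists changed sign under at least 1 alternative. For shMITF, a minimum of 10 counts gave 1405 higher and 2166 lower against shSCR1, and leaving out 1 library gave 543 to 1273 and 413 to 818 against shSCR2 and 2165 to 2571 and 3041 to 3668 against shSCR1. For shBRG1, that minimum gave 2567 higher against shSCR1 and 3139 and 2663 against shSCR2, library sizes alone gave 6192 and 2398 against shSCR1 and 8953 and 2576 against shSCR2, and leaving out 1 library gave 4486 to 4805 and 3694 to 3814 against shSCR1 and 6420 to 7055 and 3945 to 4581 against shSCR2. The replicate block gave 1127 and 730 for shMITF against shSCR2, 2226 and 3237 against shSCR1, 4448 and 3566 for shBRG1 against shSCR1, and 6690 and 4313 against shSCR2. Where only the filter or the threshold changed, the counts moved because fewer genes or other limits were used. Elsewhere the cause was not tested. With 2 shSCR2 libraries, the spread of that group rests on 1 degree of freedom.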
